A study of Mus musculus with 6 samples.

Results

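The genes described here mark immune cells: macrophages and their complement genes, antigen-presenting cells, T cells, B cells and plasma cells. They are 34 genes, taken by symbol from the 34945 in the deposited gene table, and all 34 symbols were present. Of these, 20 belong to macrophages, the complement component C1q, leukocytes in general or MHC class II, and 14 to T cells, B cells, plasma cells or lymphoid homing. Their levels were followed in 6 libraries of mouse pancreatic islets, and the myeloid genes were compared with the lymphocyte genes and with the exocrine share of each library. All mice carried RIP-Cre, in which the rat insulin promoter drives Cre recombinase in beta cells, and Rosa26-rtTA, which encodes a transcription factor that doxycycline switches on. In the Jag1 group (3 libraries) mice also carried tetO_Jag1, which lets doxycycline induce Jag1, a ligand of Notch receptors. Control mice (3 libraries) lacked it. Every mouse, Control included, drank doxycycline for 8 weeks. The labels give no age and do not say whether the libraries stem from different mice. All p-values therefore reflect the spread among these libraries, which may be technical.

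Islets hold resident macrophages, which lie along the capillaries, depend on the growth factor CSF1 and its receptor, and make C1q, the part of complement that starts the classical cascade. Macrophages, dendritic cells and B cells display peptides to CD4 T cells on MHC class II, while T and B lymphocytes are sparse in healthy islets and abundant in lymph nodes, several of which lie against the pancreas. Plasma cells, which B cells give rise to, secrete antibodies, among them IgA with its joining chain.

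Library totals lay between 14283469 and 34348729 estimated counts, so that the limit that a count of 0 allows (3 counts) corresponded to 0.0873 to 0.21 CPM (counts scaled to a library of 1000000). The 2 insulin genes took 11.4% to 18.8% of the counts. Jag1 stood at 4.01 to 4.28 CPM in the Control and at 525 to 906 CPM in the Jag1 libraries, so every library followed its label (exact 2-sided permutation p = 0.1, the smallest that 10 splits allow). Acinar cells, which make the digestive enzymes of the exocrine pancreas, were followed by a list of 28 genes. These took 10.1%, 3.62% and 0.41% of all counts in Control 1 to 3, against 0.804%, 2.68% and 10.1% in Jag1 1 to 3. No acinar gene of the list was at 0 in any library. Control 1 and Jag1 3 stood apart from the other 4 libraries in this share and in many of the genes below. For the 34 genes, the main results that rest on them are given with and without them.

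No immune gene passed the test between Jag1 and Control. Of the 34 genes, 28 passed the filter on low counts and were tested. The other 6, Cd3d, Cd3e, Cd3g, Cd8a, Ms4a1 and Ccr7, were too sparse. The count called was 0 of 28 by the quasi-likelihood test of edgeR (Benjamini-Hochberg adjustment), where 0.0213% of all 14073 genes tested were called. DESeq2 called 0 of the 25 to which it gave an adjusted p (0.256% of all genes) and limma-voom 0 of 28 (0.0284%). An unadjusted p under 0.05 was met by 2 of the 28, Csf1r and Cd2, beside 4.97% of all genes. The same genes were the 2 of 28 whose groups did not overlap, Csf1r with Jag1 higher (5.29% of all genes) and Cd2 with Jag1 lower (5.22%). The median log2 fold change was -0.13 over the 28 and -0.004 over all genes, with 12 higher and 16 lower in Jag1 by sign. These signs turned with the library left out: without Control 1, 21 of 28 were higher (median 0.16), and without Jag1 3, 27 of 29 were lower (median -0.51). Without both, 6 of 25 were higher and 19 lower, and again 0 were called. In bulk tissue, fewer cells of a type and less RNA per cell cannot be told apart, and this holds for each value below.

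**Figure D1:**
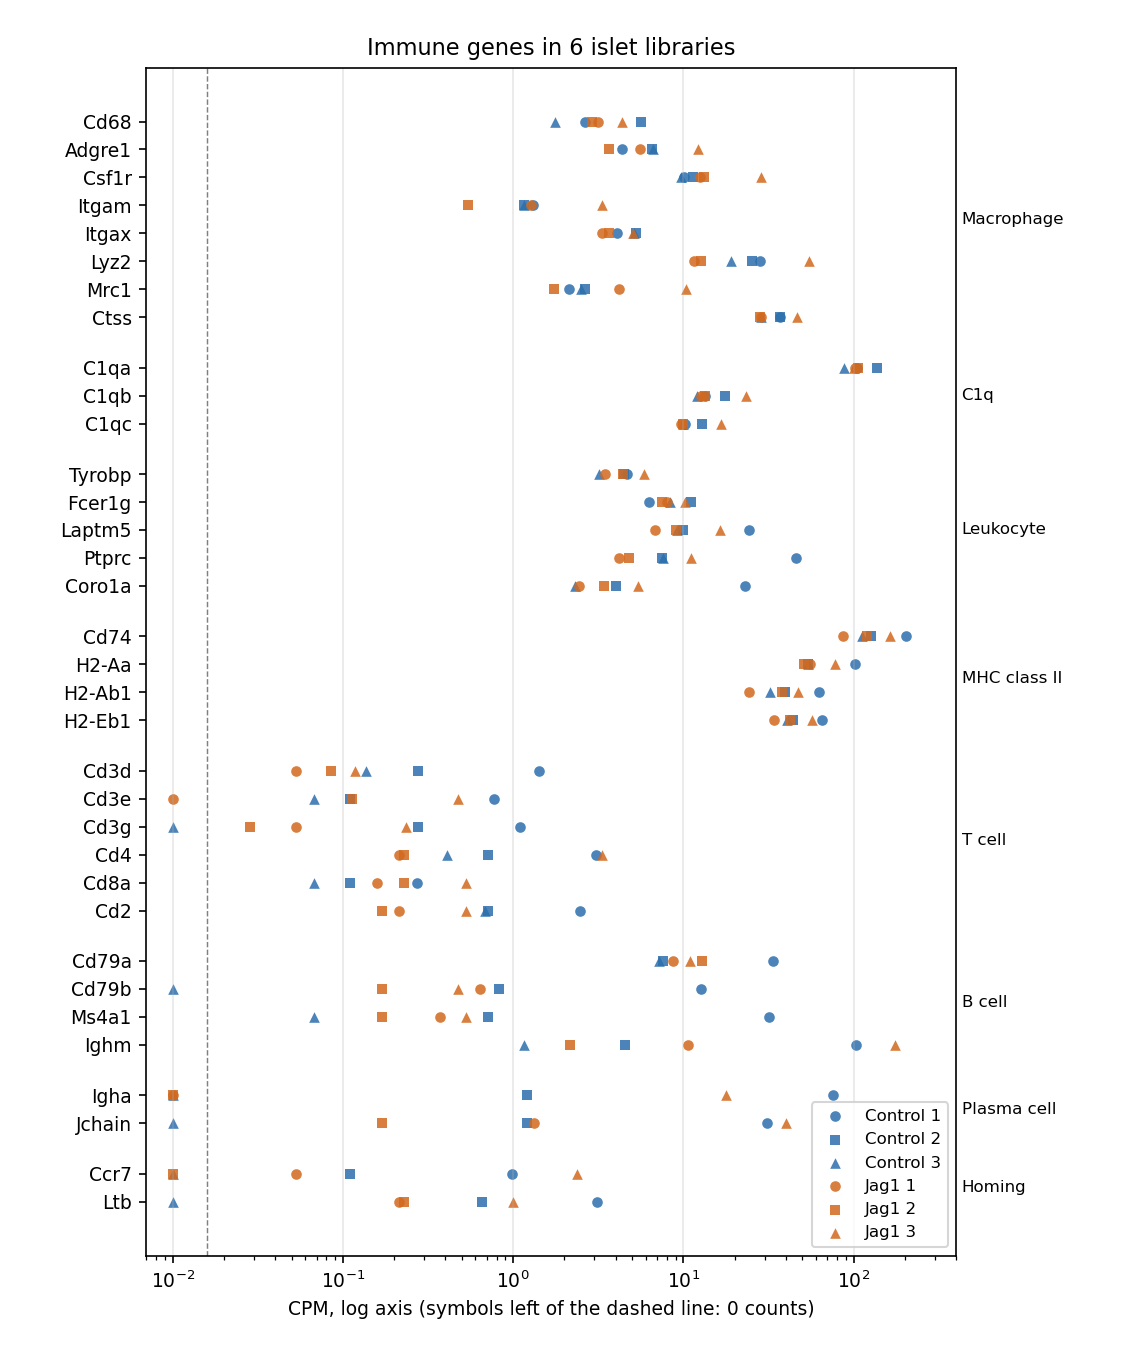
CPM of the 34 immune genes (log axis) in each of the 6 libraries, 1 symbol per library, with 0 counts drawn left of the dashed line. C1q and MHC class II genes lie close together across libraries, while B cell, plasma cell and homing genes spread widely, with Control 1 or Jag1 3 highest for each of them.

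The macrophage genes were present in every library, and 6 of the 8 were highest in Jag1 3. Csf1r, the receptor for CSF1 that macrophages need to survive, stood at 10.1, 11.3 and 9.72 CPM in Control 1 to 3 and at 12.5, 13.2 and 28.5 CPM in Jag1 1 to 3. All Jag1 libraries lay above all Control libraries, but Jag1 3 was 2.16-fold above the next. The log2 fold change was 0.79 (SE 0.32, adjusted p = 0.955 by edgeR), and it was 0.31 without Jag1 3 and 0.29 without Control 1 and Jag1 3. Csf1r shares 873 bp on the opposite strand with Hmgxb3, so reads there count for Csf1r only as far as strand was used. Mrc1, the mannose receptor of tissue-resident macrophages, had 2.14, 2.64 and 2.51 CPM in Control 1 to 3 against 4.19, 1.73 and 10.4 CPM in the Jag1 libraries. Its groups overlapped, and its log2 fold change of 1.14 (SE 0.60) was 0.27 without Jag1 3.

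Lyz2, the lysozyme of macrophages and monocytes, had 28.3, 25.1 and 19.0 CPM in Control 1 to 3 and 11.5, 12.7 and 54.3 CPM in Jag1 1 to 3. Jag1 1 and Jag1 2 lay below all Control libraries and Jag1 3 above them, so the mean difference was small (log2 fold change 0.10, SE 0.75) and became -0.99 without Jag1 3 (adjusted p = 0.255 by edgeR) and -0.86 without Control 1 and Jag1 3. Lyz2 shares 1264 bp at 95.8% identity with Lyz1, which had 0 to 32 counts, so part of either could be assigned to the other. Adgre1, which encodes the macrophage surface protein F4/80, ranged from 3.64 CPM in Jag1 2 to 12.2 CPM in Jag1 3, and Itgam, the integrin CD11b, from 0.54 to 3.3 CPM in the same libraries. The log2 fold change was 0.27 (SE 0.44) for Adgre1 and 0.46 (SE 0.58) for Itgam, and both signs turned without Jag1 3. Itgam shares 3454 bp at 99.9% identity with Gm49368, which had 0 counts in every library, and Itgax shares 758 bp with Itgad. Cd68, a lysosomal glycoprotein, ran from 1.77 CPM in Control 3 to 5.66 CPM in Control 2, and its log2 fold change was 0.03 (SE 0.40). Itgax, the integrin CD11c of islet macrophages and dendritic cells, was even, at 3.34 to 5.28 CPM (-0.26, SE 0.25), as was Ctss, the cathepsin that trims the invariant chain, at 28.05 to 46.5 CPM (0.01, SE 0.21). Mesenchymal cell genes were also highest in Jag1 3. The 11 pericyte and fibroblast genes, none of them at 0, summed to 187 to 230 CPM in the Control group and to 269, 270 and 401 CPM in Jag1 1 to 3, and 8 of the 11 were highest in Jag1 3. Their part in the values of Jag1 3 was not tested.

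C1qa, C1qb and C1qc, the genes of the 3 chains of C1q, lie side by side on chromosome 4 (GRCm38, 136880129 to 136898803 from C1qb to C1qa) and were the steadiest group. C1qa had 104, 137 and 87.7 CPM in Control 1 to 3 and 102, 106 and 101 CPM in Jag1 1 to 3, a log2 fold change of -0.09 (SE 0.15). C1qb had 13.4, 17.5 and 12.0 CPM in the Control and 12.7, 13.4 and 23.2 CPM in the Jag1 libraries (0.19, SE 0.25). C1qc ranged from 9.72 to 16.6 CPM (0.12, SE 0.22). The groups overlapped for all 3. Protein C1q holds the chains in equal number, yet C1qa was listed far above the others per length: its CPM per kb of exon was 7.63 to 8.34 times that of C1qb in 5 libraries and 4.55 times in Jag1 3, where C1qb and C1qc were high and C1qa was not. The ratio of C1qc to C1qb in CPM stayed between 0.715 and 0.825. No other transcript shared 100 bp or more with C1qa at 85% identity. At a median of 98.8 CPM per kb, C1qa was the most abundant of the 34 genes per length, ahead of Cd74 at 73.4.

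Of the genes that all or most leukocytes share, the signalling adaptors of myeloid cells were even and the pan-leukocyte genes were high in Control 1. Tyrobp, the adaptor DAP12, ranged from 3.19 to 5.84 CPM over the 6 libraries, and Fcer1g, the common Fc receptor chain, from 6.3 to 11.1 CPM. Their log2 fold changes were 0.15 (SE 0.27) and -0.01 (SE 0.22). Ptprc, the CD45 phosphatase carried by nearly all leukocytes, stood at 45.6, 7.53 and 7.61 CPM in Control 1 to 3 and at 4.19, 4.8 and 11.1 CPM in Jag1 1 to 3. Control 1 was thus 4.11-fold above Jag1 3, the next highest, and the log2 fold change of -1.62 (SE 1.00) became -0.19 without Control 1 and -0.74 without Control 1 and Jag1 3. Coro1a, an actin regulator of lymphocytes, was also highest in Control 1 and next in Jag1 3, with 23.0, 4.01 and 2.31 CPM in the Control and 2.44, 3.41 and 5.43 CPM in the Jag1 libraries (-1.39, SE 1.03, and 0.24 without Control 1). It overlaps Bola2 on the opposite strand by 26 bp. Laptm5, a lysosomal protein of blood cells, had 24.2 CPM in Control 1, 16.3 CPM in Jag1 3 and 6.85 to 9.95 CPM in the other 4 libraries.

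The MHC class II genes were abundant in every library and all 4 were highest in Control 1. They are shown here with the RefSeq promoters matched in the table used, those of H2-Aa and H2-Eb1, because these genes were high in the same libraries. MHC class II promoters are known for the X and Y boxes, where RFX, CREB and NF-Y gather and recruit the coactivator CIITA. The sequences run 5′ to 3′ on the gene's strand (build GRCm38.p6), from 250 bases before to 50 after the start, at chr17:34287774-34288073 (minus strand) for H2-Aa and chr17:34305617-34305916 (plus strand) for H2-Eb1. Capitals mark matches to the letters of the Y box core ATTGG, read as CCAAT on the other strand, and of the X2 box core TGACGTCA.
H2-Aa: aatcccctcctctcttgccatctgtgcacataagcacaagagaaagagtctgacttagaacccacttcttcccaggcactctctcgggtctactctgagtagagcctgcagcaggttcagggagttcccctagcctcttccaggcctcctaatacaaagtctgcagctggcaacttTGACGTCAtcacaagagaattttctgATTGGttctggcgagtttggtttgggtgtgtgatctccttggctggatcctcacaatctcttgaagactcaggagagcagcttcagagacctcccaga
H2-Eb1: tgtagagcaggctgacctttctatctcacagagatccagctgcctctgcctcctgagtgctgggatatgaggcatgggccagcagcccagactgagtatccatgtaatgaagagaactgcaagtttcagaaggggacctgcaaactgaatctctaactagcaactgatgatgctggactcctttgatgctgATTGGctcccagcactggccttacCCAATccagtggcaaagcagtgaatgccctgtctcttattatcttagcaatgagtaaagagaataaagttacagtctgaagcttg
H2-Aa held ATTGG 48 bases before its start and TGACGTCA 74 bases before it. H2-Eb1 held ATTGG 59 bases before its start and the reverse complement CCAAT 35 bases before, and no TGACGTCA. RefSeq promoters were matched for 21 of the 34 genes (23 promoters), and both strands were searched. ATTGG was in those of 6 genes, beside 37.4% of 32851 promoters of 300 bases, and TGACGTCA in that of H2-Aa, beside 1.79%. AGAGGAA, the core bound by the myeloid factor PU.1, was in those of 5 genes (Cd68, Mrc1, Laptm5, Ptprc and Cd79a), beside 10.4%.

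Cd74, the invariant chain that guards the peptide groove, stood at 202, 127 and 111 CPM in Control 1 to 3 and at 86.96, 119.5 and 164 CPM in Jag1 1 to 3. H2-Aa, the alpha chain of I-A, had 102, 53.7 and 54.0 CPM in the Control and 55.1, 51.3 and 77.4 CPM in the Jag1 libraries. H2-Ab1, its beta chain, had 62.2, 39.3 and 32.3 CPM against 24.3, 37.8 and 47.2 CPM. H2-Eb1, the beta chain of I-E, had 65.1, 43.8 and 40.5 CPM against 34.2, 42.0 and 56.9 CPM. In each of the 4 genes Control 1 was highest and Jag1 3 second, and the groups overlapped. Log2 fold changes were -0.25 (SE 0.32) for Cd74, -0.20 (SE 0.31) for H2-Aa, -0.29 (SE 0.34) for H2-Ab1 and -0.17 (SE 0.23) for H2-Eb1. All 4 turned positive without Control 1, at 0.03 to 0.19. B cells also carry MHC class II and CD45, and a list of 14 B cell genes, detailed with the B cell results, was likewise highest in Control 1 (189 CPM against at most 15.7 CPM). Its part in the MHC class II and pan-leukocyte values was not tested. H2-Ab1 and H2-Eb1 share 201 bp at 89.1% identity, so reads there could be split between them.

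**Figure D2:**
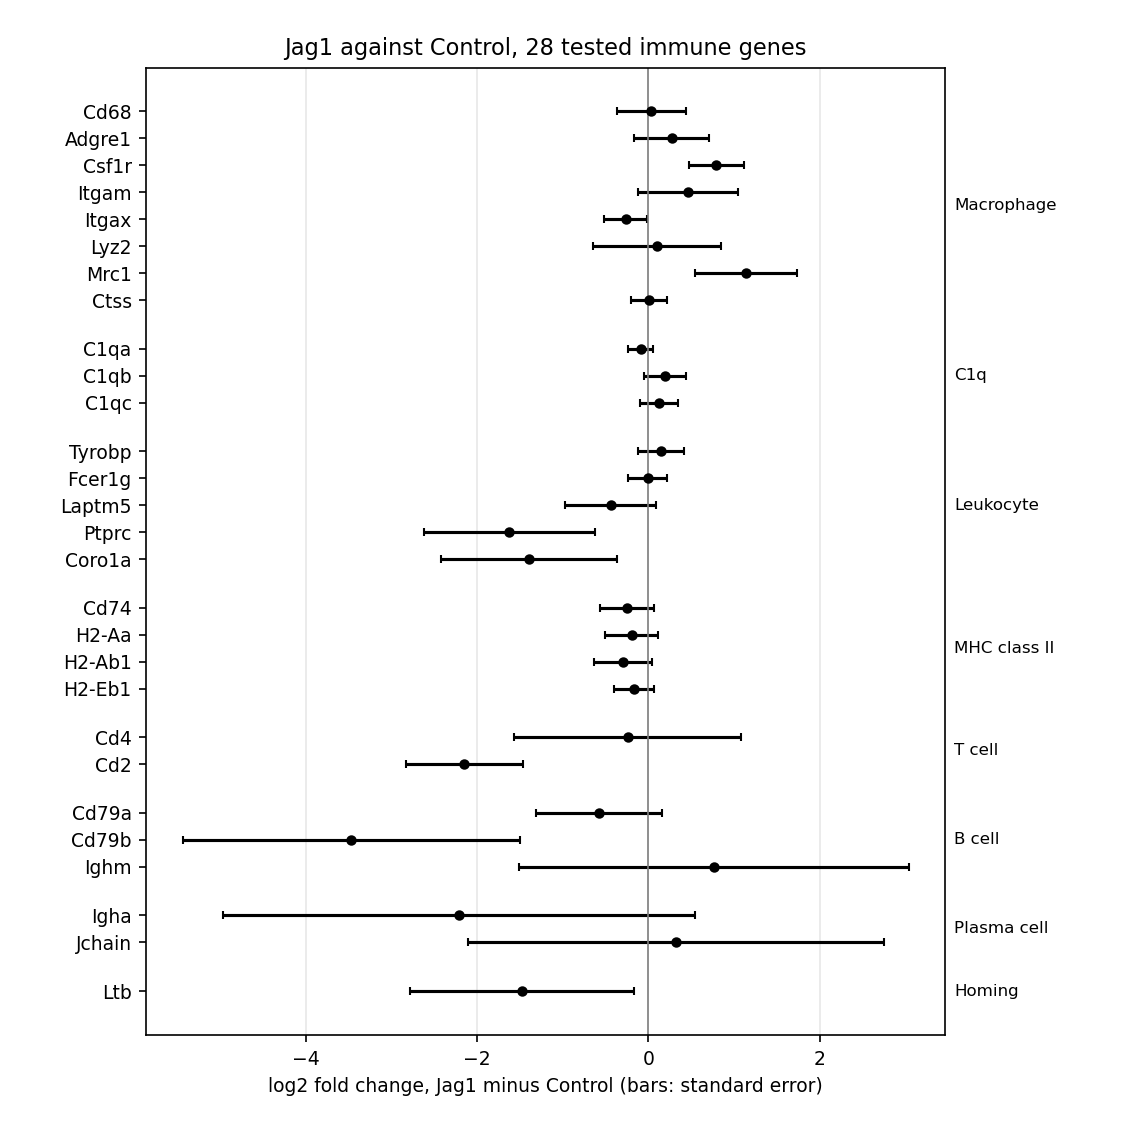
Log2 fold change of Jag1 over Control for the 28 tested immune genes, grouped by role, with bars for the standard error. C1q and MHC class II genes sit near 0 with short bars, and B cell and plasma cell genes have the longest bars, up to 2.75 for Igha.

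T cell genes were at the edge of detection in 4 libraries. Cd3d, Cd3e and Cd3g encode the CD3 chains of the T cell receptor. Cd3d had 26, 5 and 2 counts in Control 1 to 3 and 1, 3 and 2 counts in Jag1 1 to 3. Cd3e had 14, 2 and 1 counts against 0, 4 and 8, and Cd3g had 20, 5 and 0 against 1, 1 and 4. Outside Control 1 and Jag1 3, none of the 3 exceeded 5 counts in a library. Cd8a, the co-receptor of cytotoxic T cells, stayed at 1 to 9 counts in all 6 libraries. It shares 832 bp with Gm20707, Cd3e 136 bp with Gm48719 and Cd4 129 bp with Ric8a, so their low counts are uncertain. Cd4, the co-receptor of helper T cells that some macrophages and dendritic cells also carry, reached 3.07 CPM in Control 1 and 3.3 in Jag1 3 but was at 0.212 to 0.714 CPM elsewhere, and its log2 fold change was -0.24 (SE 1.32). Cd2, an adhesion receptor of lymphocytes, had 2.47, 0.714 and 0.68 CPM in the Control and 0.212, 0.171 and 0.531 CPM in the Jag1 libraries, from 4 to 45 counts. The groups did not overlap, and Cd2 had the smallest p of the 28, with a log2 fold change of -2.15 (SE 0.68) and an edgeR adjusted p = 0.915. Without Control 1 its value was -1.25, and without Control 1 and Jag1 3 it was -1.86.

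B cell genes were highest in Control 1, except for Ighm, which was highest in Jag1 3. Ms4a1, the B cell surface protein CD20, had 579, 13 and 1 counts in Control 1 to 3 and 7, 6 and 9 counts in Jag1 1 to 3, so that Control 1, at 31.7 CPM, was 44.4-fold above Control 2, the next highest. Ms4a1 matches transcripts of 414 other genes over 100 bp or more, the longest match being 199 bp, and its few counts outside Control 1 are uncertain for that reason. Cd79b, a signalling chain of the B cell receptor, had 230, 15 and 0 counts in the Control and 12, 6 and 8 counts in the Jag1 libraries (log2 fold change -3.47, SE 1.97, and -0.07 without Control 1). Its partner Cd79a did not follow it: it had 33.5, 7.58 and 7.2 CPM in the Control and 8.71, 12.9 and 10.9 CPM in the Jag1 libraries. Cd79a shares 298 bp at 98.7% identity with Gm32220, which had 0 counts in every library, so reads there could be assigned to either. The ratio of Cd79a to Cd79b counts was 2.66 in Control 1, 9.2 in Control 2, 13.7 to 75.5 in the Jag1 libraries, and not defined in Control 3, where Cd79b was at 0.

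Ighm, the constant region of IgM, was high in Control 1 and Jag1 3: 103, 4.56 and 1.16 CPM in Control 1 to 3 and 10.6, 2.16 and 175 CPM in Jag1 1 to 3. Its groups overlapped, and the log2 fold change of 0.77 (SE 2.27) ran from -2.59 without Jag1 3 to 4.39 without Control 1. Jag1 3 thus had more Ighm than Control 1 with 9 counts of Ms4a1 against 579. The ratio of Ighm to Ms4a1 was 3.25 in Control 1 and 330 in Jag1 3. As for Ms4a1, Control 1 was the highest library for all 14 genes of a further B cell list, summing to 189 CPM there and to 5.16 to 15.7 CPM in the other 5 libraries, Jag1 3 included. Of the 4 of these that were tested between the groups, Cd22, Cd37, Spib and Ebf1, 0 were called.

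The 2 plasma cell genes of the 34, Igha and Jchain, were seen almost only in Control 1 and Jag1 3. Igha, the constant region of IgA, had 1383, 22 and 0 counts in Control 1 to 3 and 0, 0 and 302 counts in Jag1 1 to 3. Jchain, which links IgA and IgM units, had 566, 22 and 0 counts in the Control and 25, 6 and 681 counts in the Jag1 libraries. Igha was 2.44 times Jchain in Control 1 and 0.443 times in Jag1 3. Between the groups, the log2 fold change was -2.21 (SE 2.75) for Igha and 0.32 (SE 2.43) for Jchain. With the acinar share as a covariate, Igha was called lower in Jag1 (-2.23, SE 0.29, adjusted p = 0.0326 by edgeR; 0.0355% of all genes were called in that fit). That call rests on Control 1, Control 2 and Jag1 3, since the other 3 libraries had 0 counts. Igh constant genes lie together on chromosome 12, Igha at 113254830 to 113260236 and Ighm at 113418558 to 113422730.

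**Figure D3:**
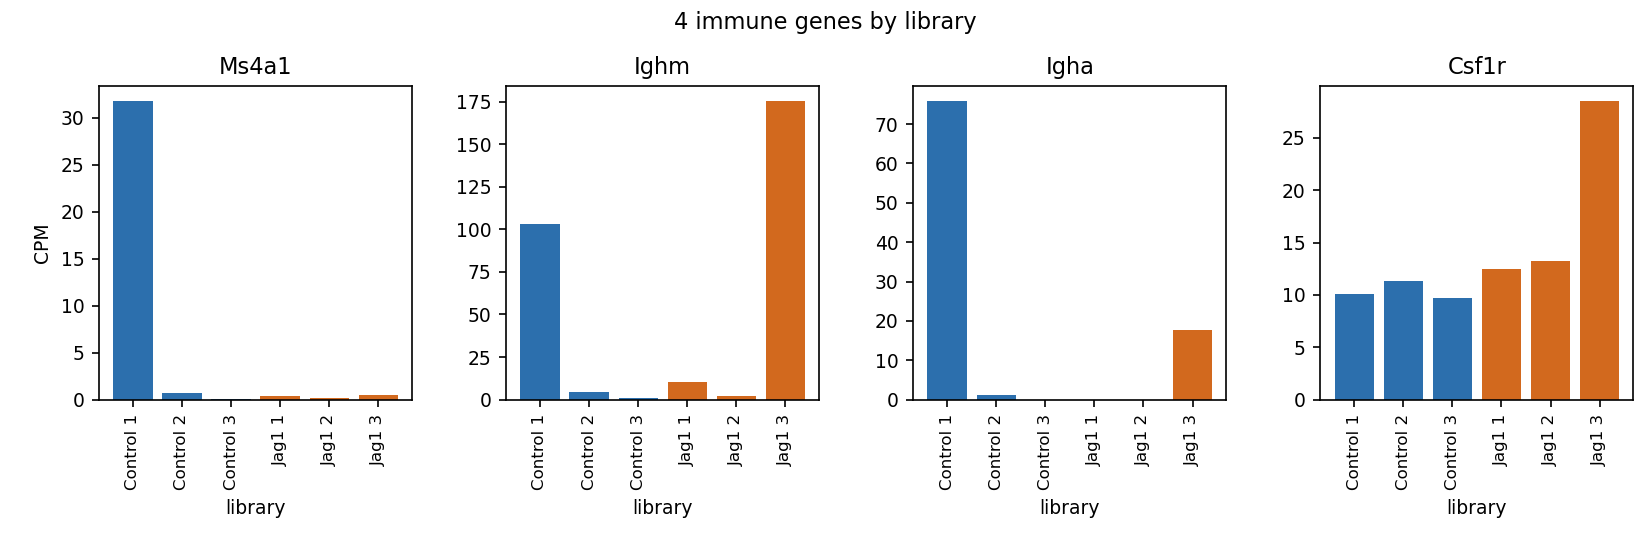
CPM of Ms4a1, Ighm, Igha and Csf1r in each library, as bars from 0 with an axis of its own for each gene. Ms4a1 is high in Control 1 alone (31.7 CPM), Ighm and Igha in Control 1 and Jag1 3, and Csf1r is present in all 6 libraries.

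The homing genes were sparse as well. Ccr7, the chemokine receptor that guides lymphocytes and dendritic cells into lymph nodes, had 18, 2 and 0 counts in Control 1 to 3 and 1, 0 and 40 counts in Jag1 1 to 3. Ltb, lymphotoxin beta, a lymphocyte cytokine that organises lymphoid tissue, had 57, 12 and 0 counts in the Control and 4, 8 and 17 counts in the Jag1 libraries (log2 fold change -1.48, SE 1.31). Markers of lymph node stroma and follicles, looked up in a list of 7, were sparse outside Control 1, apart from Tnfrsf11a, the receptor RANK, at 7.86 to 10.99 CPM in all libraries. Cxcl13, the chemokine of B cell follicles, stood at 30.6 CPM in Control 1 against 0.171 to 0.385 CPM elsewhere. Its receptor Cxcr5 had 7.4 CPM in Control 1 and at most 0.531 CPM in the others. Glycam1, a product of high endothelial venules, had 20 counts in Control 2 and 18 counts in Jag1 3 and was at 0 in the other 4 libraries, Control 1 included. Ccl21a, a chemokine of lymph node stroma, was highest in Control 2 with 14 counts, against 1 count in Control 1, 3 counts in Jag1 3 and 0 elsewhere. The 7 genes summed to 49 CPM in Control 1, 8.97 and 14.0 CPM in the other Control libraries and 8.49 to 11.9 CPM in the Jag1 libraries. Cxcl13, Cxcr5, Glycam1 and Ccl21a were named after their values were seen, and the part of lymph node material in the lymphocyte values was not tested.

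Set side by side, the macrophage, C1q, leukocyte and MHC class II genes and the lymphocyte genes differed in how far they spread. The 20 macrophage, C1q, leukocyte and MHC class II genes summed to 753, 563 and 453 CPM in Control 1 to 3 and to 420, 476 and 700 CPM in Jag1 1 to 3, a 1.79-fold range. These 20 are not myeloid genes alone, since B cells also carry MHC class II and CD45. In Control 1, MHC class II genes gave 432 CPM of the sum. The 8 macrophage genes summed to 89.8, 94.8 and 74.2 CPM in Control 1 to 3 and to 70.2, 66.4 and 165 CPM in Jag1 1 to 3. The 14 T cell, B cell, plasma cell and homing genes summed to 301, 19.1 and 9.79 CPM in the Control and to 22.6, 16.6 and 254 CPM in the Jag1 libraries, a 30.8-fold range. In the 4 libraries other than Control 1 and Jag1 3, the ranges were 420 to 563 CPM and 9.79 to 22.6 CPM. The median SD of log2 CPM within groups was 0.46 over the 20 genes and 0.64 over the 8 macrophage genes among them. Over the 14 lymphocyte genes it was 1.76 (2.10 over the 8 tested). It was 0.19 over all genes tested and 0.42 over all 34945 genes. Most of the 14 lymphocyte genes rest on few counts outside Control 1 and Jag1 3. None of the 20 was at 0 in any library, while 6 of the 14 were at 0 in Control 3 and 2 each in Jag1 1 and Jag1 2. Control 1 was the highest library for 16 of the 34 genes and Jag1 3 for 14.

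**Figure D4:**
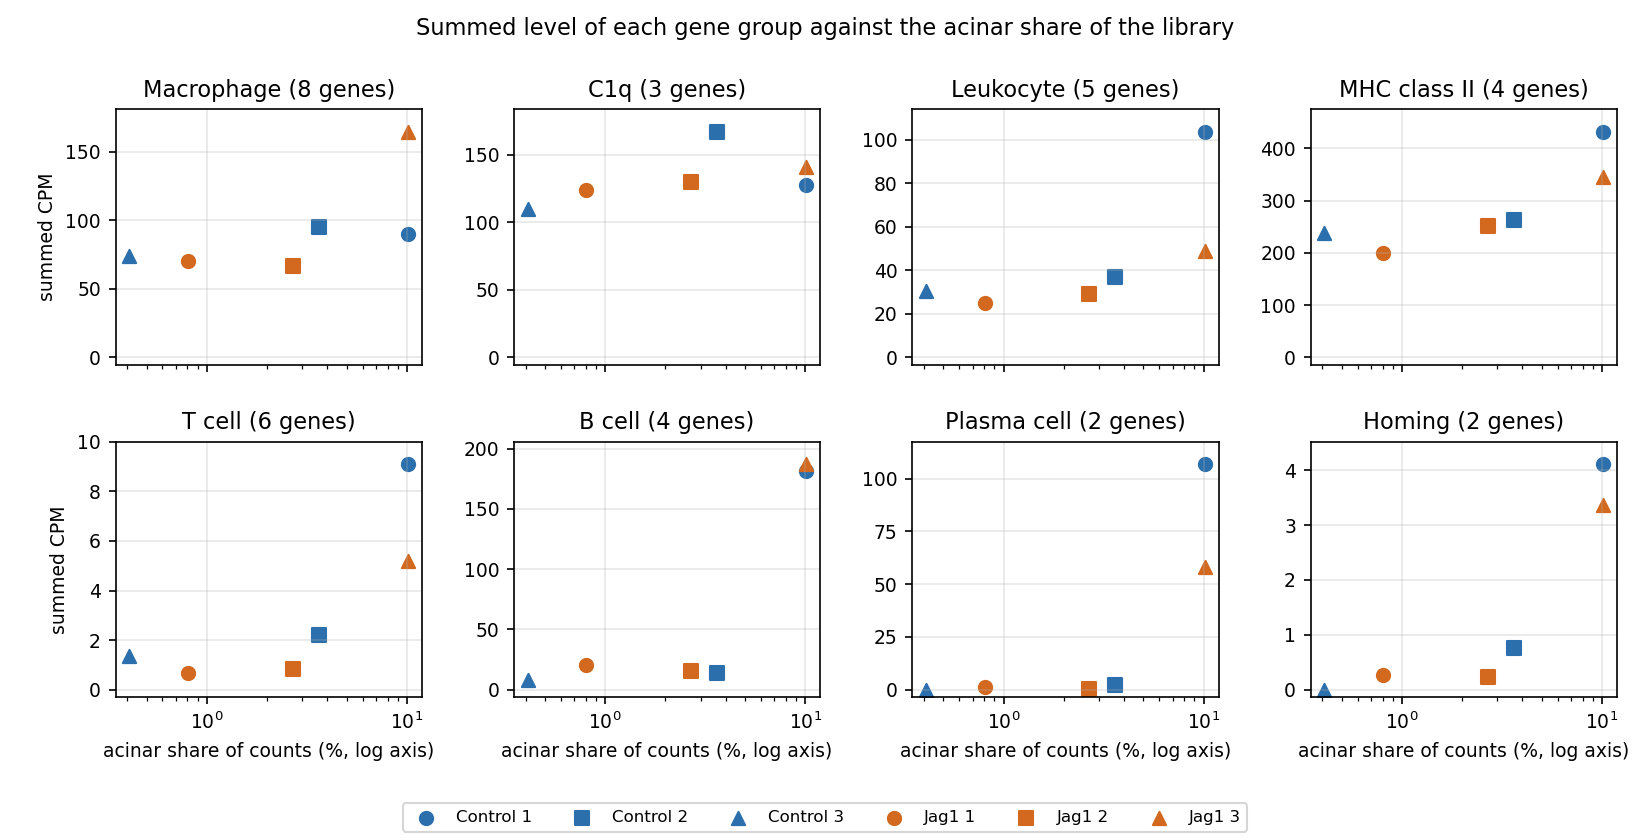
Summed CPM of each group of immune genes against the acinar share of the library's counts (log axis), 1 symbol per library, with a linear vertical axis that includes 0 in each panel. Both libraries at an acinar share of 10.1% are highest for T cell, B cell, plasma cell, homing, leukocyte and MHC class II genes, while C1q is highest in Control 2.

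The acinar share was then fitted as a slope beside the group, in log2 change per doubling of the share and with acinar genes left out of the counts. Igha, Cd74 and H2-Ab1 rose with it, 3 of 28 tested, where 0.506% of all 14043 genes passed with a positive slope and 0.00712% with a negative one. Igha rose by 4.20 per doubling (SE 0.15, adjusted p = 3.75e-08 in edgeR). Cd74 rose by 0.20 (SE 0.04, edgeR adjusted p = 0.0391), or 1.15-fold per doubling, and H2-Ab1 by 0.22 (SE 0.04, edgeR adjusted p = 0.0337), or 1.16-fold. With 3 libraries at 0 counts, the size of the Igha slope depends on the small prior count of the fit. Its small SE and p rest on Control 1, Control 2 and Jag1 3, which the group and slope terms can fit closely. H2-Eb1 and H2-Aa had slopes of 0.16 each (edgeR adjusted p of 0.122 and 0.437).

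Beyond these 3, slopes were positive for 28 of 28 genes, and for 34 of 34 with no filter on low counts, beside 50.2% of all genes. An unadjusted p under 0.05 was met by 15 of the 28, all positive, where 4.57% of all genes met it with a positive slope. The median slope was 0.16 over the 20 macrophage, C1q, leukocyte and MHC class II genes. It was 1.01 over the 8 tested lymphocyte genes and 0.0004 over all genes. Within the 20, it was 0.16 for macrophage, 0.11 for C1q, 0.30 for leukocyte and 0.18 for MHC class II genes. Of the macrophage and C1q genes, 0 were called. Steep slopes that did not pass were those of Jchain (2.00, SE 0.57), Ighm (1.32, SE 0.48), Ltb (1.07, SE 0.22), Cd79b (0.95, SE 0.53) and Cd4 (0.87, SE 0.19). Shallow ones were those of Fcer1g (0.02, SE 0.07), Itgax (0.03, SE 0.08) and C1qa (0.05, SE 0.04).

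Control 1 and Jag1 3 have the same acinar share and unlike B cell genes. Without both, a fit with 1 residual degree of freedom, 20 of 25 slopes were positive and 0 were called, beside 0.655% of all genes in either direction. Igha was not tested there. The slope of Cd74 was then 0.11 and that of H2-Ab1 0.16, with an edgeR adjusted p of 0.467 and 0.358. Cd74 and H2-Ab1 also missed the threshold without Control 1 (0.377 and 0.353), Control 3 (0.0839 and 0.113), Jag1 1 (0.192 and 0.153) or Jag1 3 (0.199 and 0.14), while their slopes in these 4 fits stayed at 0.17 to 0.28 for Cd74 and 0.19 to 0.29 for H2-Ab1. The number called was 1 without Control 1, Control 3 or Jag1 3, 8 without Control 2, 5 without Jag1 1 and 4 without Jag1 2. Igha passed whichever library was left out, with a slope of 3.97 to 5.25, but had an edgeR adjusted p of 0.125 with no group term. Only Control 1, Control 2 and Jag1 3 held Igha counts, so these fits could not test its slope apart from those libraries. Fitted without the group term, Ltb was the member called (adjusted p = 0.0412 by edgeR).

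**Figure D5:**
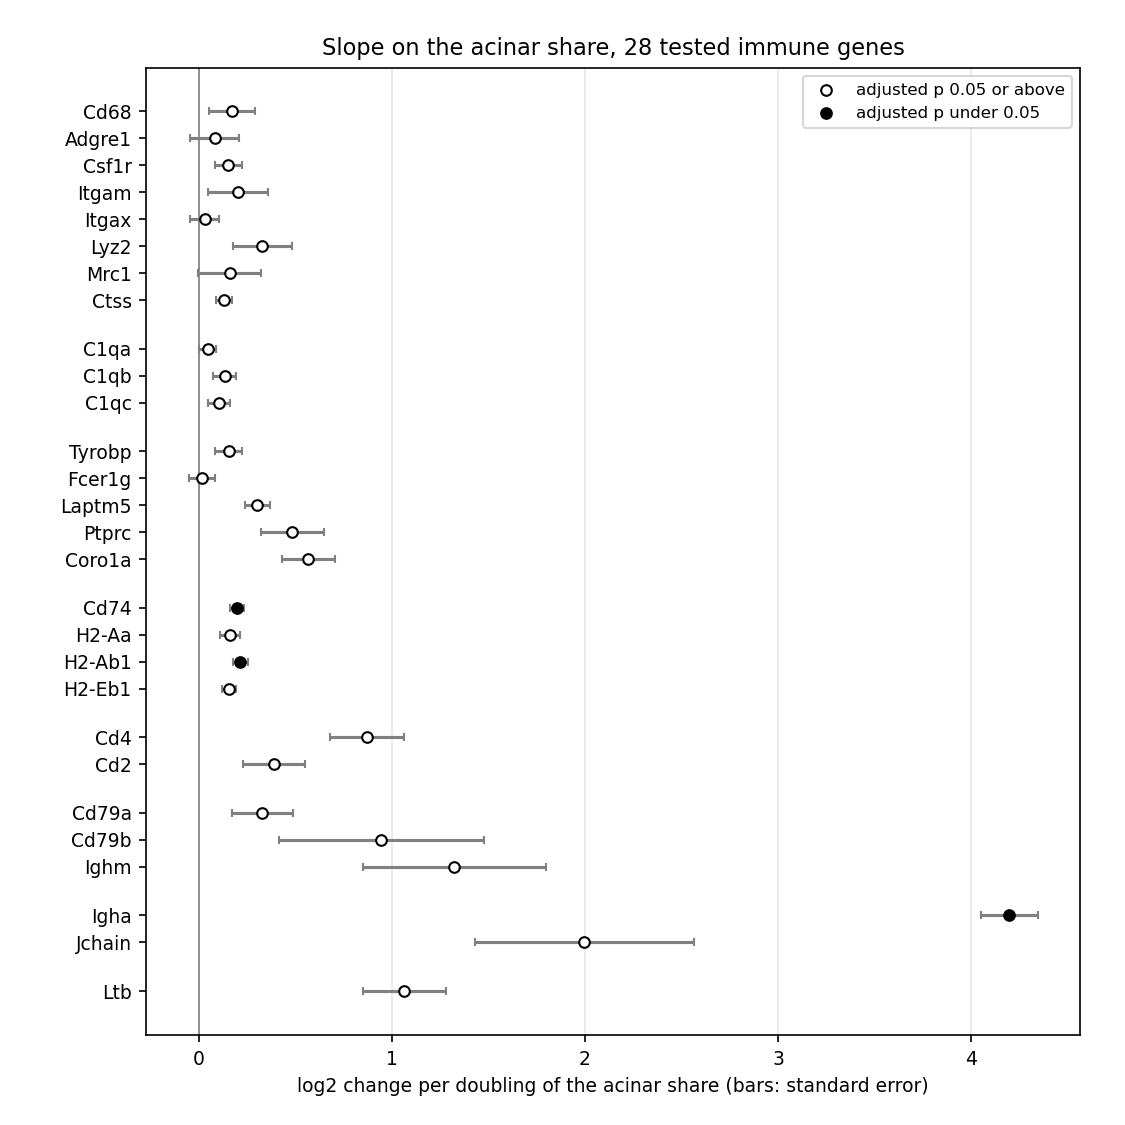
Slope on the acinar share for the 28 tested immune genes, in log2 change per doubling of the share with the group as a term, with bars for the standard error and filled symbols for an edgeR adjusted p under 0.05. All 28 lie right of 0, and the filled symbols are Cd74, H2-Ab1 and Igha.

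Other genes of the same pathways were followed as lists. In the group comparison 0 of the tested genes of each list passed (edgeR), and so the lists are described by their signs and levels. Of 32 further macrophage genes, 25 were tested, 12 higher and 13 lower in Jag1 (median log2 fold change -0.01). Jag1 3 was the highest library for 21 of the 32, as it was for most of the macrophage genes above. Apoe, the lipid carrier made by macrophages, ranged from 85.2 to 158 CPM. Irf8, a myeloid and B cell transcription factor, had 11.9 CPM in Control 1, 5.25 CPM in Jag1 3 and 1.09 to 2.03 CPM in the others.

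Among 17 genes of the MHC class II machinery, 12 were tested, 6 higher and 6 lower (median -0.05), and 11 of the 17 were highest in Control 1. Ciita, the master coactivator of MHC class II genes, had 9.76, 1.48 and 2.04 CPM in the Control and 0.903, 1.34 and 3.42 CPM in the Jag1 libraries. Its slope on the acinar share was 0.48 (SE 0.14, edgeR adjusted p = 0.329), and that of H2-DMa, a chain of the peptide editor, was 0.30 (SE 0.07, adjusted p = 0.137). The B cell forms H2-DMb2 and H2-Ob, named after their values were seen, stood at 12.2 and 8.44 CPM in Control 1 and at most at 1.59 and 0.531 CPM in the other libraries. The cathepsin genes Ctsb and Ctsl were even at 194 to 228 and 148 to 168 CPM.

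The 16 pan-leukocyte genes gave 15 negative and 1 positive log2 fold changes (median -0.79), 15 of the 16 being highest in Control 1. Was, the actin regulator missing in Wiskott-Aldrich syndrome, had the smallest p (-1.69, SE 0.61, edgeR adjusted p = 0.941). All 16 slopes on the acinar share were positive. Dock2, which drives lymphocyte migration, rose by 0.62 per doubling (SE 0.11, edgeR adjusted p = 0.0314) and Itgal, the integrin LFA-1 of lymphocytes, by 0.83 (SE 0.14, adjusted p = 0.03). Outside Control 1 and Jag1 3, Dock2 stood at 0.956 to 2.31 CPM and Itgal at 0.34 to 1.48 CPM, against 3.54 and 4.19 CPM in Jag1 3. Slopes of these list genes without Control 1 and Jag1 3 are not given here. The neutrophil genes S100a8, S100a9 and Retnlg, named after their values were seen, were at or under 0.11 CPM in every library. Others of the same list of 10 monocyte and neutrophil genes were detected. In the libraries other than Control 1, Csf3r stood at 0.319 to 0.824 CPM and Cxcr2 at 0.256 to 0.531 CPM. Ccr2 stood at 1.59 to 3.93 CPM and Plac8 at 0.413 to 4.67 CPM there.

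Of 25 further T and NK cell genes, 7 were tested, 4 higher and 3 lower. Trac, the constant region of the T cell receptor alpha chain, had 2.41 CPM in Control 1 and 0.531 to 1.09 CPM elsewhere. Skap1, a T cell adaptor, stood at 35.9 to 53.8 CPM in all libraries, far above the CD3 genes. The killer cell gene Gzmb was at 0 in every library. Of 19 ligands and chemokines, 8 were tested, 3 higher and 5 lower (median -0.04). Csf1, the ligand of Csf1r, ranged from 10.9 to 17.5 CPM (-0.11, SE 0.18) and Il34, its other ligand, from 0.425 to 1.59 CPM (0.38, SE 0.55). Cxcl12, a chemokine of stromal cells, had 2.85 to 3.96 CPM in 5 libraries and 10.9 CPM in Jag1 3 (0.83, SE 0.43, edgeR adjusted p = 0.955). Cx3cl1, the ligand of the macrophage receptor CX3CR1, ran the other way, from 10.1 CPM in Jag1 3 to 16.4 CPM in Jag1 1.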

How the data were processed

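RNA-seq was done on islets of 3 Control and 3 Jag1 mouse libraries (stranded poly(A) TruSeq, per the labels' protocols). The authors deposited estimated counts per gene symbol without normalization, 1 column per library. Tools named in the submitters' processing notes are kallisto, limma and bcl2fastq, with the build GRCm38 (mm10). How transcripts were summed to genes, with which annotation and in which versions, was not given in the sources used here. A deposited limma table of the authors holds, per the file headers, log2 fold changes and mean log2 expression, p-values and adjusted p-values, and 2 further statistics treated as a score each. In it no member has an adjusted p under 0.05, and its smallest p-value among members is that of Cd2 (log2 fold change -2.07, p = 0.0124, adjusted p = 0.929 in the authors' deposited table). Left out was 1 row without a gene name, with 0.00896% to 0.0155% of all counts.

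Rounded counts went into edgeR 4.0.16 (R 4.3.3): filterByExpr (minimum count 10), TMM scaling, the robust quasi-likelihood fit and Benjamini-Hochberg adjustment over all genes kept, at a threshold of 0.05. CPM are counts over TMM-scaled library sizes. Log2 fold changes are Jag1 minus Control. Slopes were fitted on log2 of the acinar share with group as a term. Exact Clopper-Pearson intervals (95%) of the acinar shares ran from 0.407% to 0.413% for Control 3, the lowest, and from 10.11% to 10.14% for Jag1 3, the highest. Intervals and limits cover counting error only. Libraries of a group differed by far more than counting noise, so none was counted as a repeat of another.

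The members and lists were chosen with earlier results of these data known. Named are all 34 members, Jag1 and, of each list, up to 4 genes with the smallest p in either fit. Levels of other list genes, among them Ctsb, Ctsl, Gzmb, Cxcl13, Cxcr5, Glycam1, Ccl21a, H2-DMb2, H2-Ob and the neutrophil genes, were chosen after their values were seen. Of 278 list genes, 276 were in the file. Coordinates and exon lengths are from GENCODE vM21 (GRCm38), promoters from RefSeq (GRCm38.p6). Shared sequence was searched with BLAST 2.17.0 among GENCODE transcripts (85% identity, 100 bp), and 11 of the 34 genes had a match. Alternatives were other scalings and filters, DESeq2 1.42.0, limma-voom (limma 3.58.1), the non-robust fit, a replicate block, the acinar share as a covariate, and libraries left out. For the slope, leaving out Control 1 and Jag1 3 at once was chosen after seeing the data. The steps were tested on simulated data. Figures were drawn with matplotlib 3.10.9.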

Additional observations from a re-analysis of the deposited data

How the results depend on the processing

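No alternative changed the count of 0 immune genes called between Jag1 and Control, except the acinar share as a covariate, which gave 1 (Igha). Over all genes, edgeR called 3, against 11 with library totals only, 36 by DESeq2, 9 with no filter on low counts, 5 with the acinar covariate, 7 without Control 1 and Jag1 3 together and 2 to 6 with each library left out in turn. On the acinar share, 72 genes were called, against 240 with no filter and 45 to 134 with each library left out. Of the members 3 were called, against 1 with no group term, 8 with no filter, 8 with the share in percent, 0 without Control 1 and Jag1 3 together and 1 to 8 with each library left out.

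Signs of fold changes near 0 turned often, and none of these values passed. Without Control 1 and Jag1 3 together, log2 fold changes were -0.31 for Cd68, -0.53 for Adgre1, -0.39 for Itgam, -0.86 for Lyz2, -0.20 for Ctss, -0.17 for C1qb, -0.21 for C1qc and 0.56 for Cd79a. By limma-voom they were -0.0393 for Adgre1, -0.15 for Itgam, -0.35 for Lyz2, -0.0406 for Ctss and -0.0758 for Jchain. With the acinar covariate they were -0.20 for Lyz2 and -0.0320 for Ctss. For Fcer1g they were 0.0089 with upper quartile scaling, 0.0095 with library totals only and 0.00059 with no filter.

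The labels do not say whether equal library numbers mark paired samples. Deviations of same-numbered libraries correlated at -0.19, 0.11 and -0.29, and those of unlike-numbered libraries at -0.16 to 0.29. With so few libraries, these values cannot settle whether the numbers pair the samples. Fitted with the number as a replicate block, 3 genes and 0 members were called, and log2 fold changes turned to -0.28 for Lyz2, -0.0248 for Ctss, 0.0118 for Fcer1g, -0.14 for Ighm and -0.88 for Jchain.

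With each library left out in turn, log2 fold changes ran from -0.26 to 0.65 for Cd68, -0.36 to 0.60 for Adgre1, -0.45 to 0.91 for Itgam, -0.99 to 0.45 for Lyz2, -0.27 to 0.14 for Ctss, -0.22 to 0.10 for C1qa, -0.13 to 0.36 for C1qb, -0.17 to 0.26 for C1qc, -0.0596 to 0.31 for Tyrobp, -0.19 to 0.23 for Fcer1g, -0.85 to 0.17 for Laptm5 and -1.85 to 0.24 for Coro1a. They ran from -0.51 to 0.0539 for Cd74, -0.40 to 0.19 for H2-Aa, -0.52 to 0.0276 for H2-Ab1, -0.38 to 0.0769 for H2-Eb1, -2.64 to 1.08 for Cd4, -0.92 to 0.56 for Cd79a, -2.59 to 4.39 for Ighm, -12.09 to 3.18 for Igha, -4.03 to 4.38 for Jchain and -2.50 to 0.40 for Ltb. The -12.09 of Igha is set against Jag1 libraries at 0 and is no bound.

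Slopes on the acinar share, with each library left out, ran from -0.13 to 0.24 for Adgre1, -0.0517 to 0.37 for Itgam, -0.0377 to 0.11 for Itgax, -0.13 to 0.32 for Mrc1, -0.0428 to 0.0885 for C1qa and -0.0421 to 0.12 for Fcer1g. Without Control 1 and Jag1 3 together they were -0.0807 for Adgre1, -0.17 for Itgam, -0.16 for Mrc1, -0.0124 for H2-Aa and -0.0059 for Cd2. The slope of Fcer1g on the share in percent, a change per percentage point, was -4.8e-05. Cd74 and H2-Ab1 missed the threshold with no group term (edgeR adjusted p of 0.101 and 0.0973), by the non-robust fit (0.0692 and 0.0615) and by limma-voom (0.0876 and 0.0779), with slopes in these fits of 0.19 to 0.20 for Cd74 and 0.21 to 0.22 for H2-Ab1. The causes of these shifts were not tested. Depth limits the T cell and homing genes, most of which lie near the limit of 3 counts in 4 libraries.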

Other observations

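Antibody genes outside the 34 differed between the libraries where Igha and Jchain were high. They belong to a list of 13 plasma cell genes, of which 6 were tested between the groups, 3 higher and 3 lower, with 0 called. Igkc, the kappa light chain constant region, had 164, 4.67 and 0.068 CPM in Control 1 to 3 and 7.49, 0.483 and 80.7 CPM in Jag1 1 to 3, the same libraries being high as for Igha. Iglc1, a lambda light chain constant region, was higher in Jag1 3 than in Control 1, at 18.9 against 2.41 CPM, and at most at 0.165 CPM in the others. Among IgG heavy chains, Ighg1 reached 15.6 CPM in Control 1 but 0.118 in Jag1 3, Ighg2b 25.98 and 13.8 CPM, and Ighg3 9.43 and 13.5 CPM. Shared sequence was searched for the 34 genes only, so how far the counting could split reads between these immunoglobulin genes was not tested. The plasma cell surface gene Sdc1, which epithelial cells also express, did not follow the antibody genes: it was highest in Jag1 1 at 7.06 CPM and stood at 1.22 to 3.83 CPM elsewhere.

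Dendritic cell genes were sparse, and 7 of 10 were highest in Jag1 3. Siglech, a marker of plasmacytoid dendritic cells, had 3.66 CPM in Jag1 3 and 0.11 to 0.796 CPM elsewhere. Xcr1 and Clec9a, markers of cross-presenting dendritic cells, had 1.12 and 1.3 CPM in Jag1 3 and at most 0.493 and 0.384 CPM elsewhere. Of the complement receptor and B cell lineage genes, Cr2 had 33.8 CPM and Pax5 21.4 CPM in Control 1, against at most 0.956 and 0.531 CPM in the other 5 libraries. Of the 32 further macrophage genes, Msr1 and Timd4 had 3.42 and 1.24 CPM in Jag1 3 against at most 0.68 and 0.438 CPM elsewhere, while Vsig4 was at 0 in all 6 libraries. The genes of these other observations, apart from Igkc, Ighg2b, Sdc1, Prdm1 and Derl3, were named after their values were seen.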
